A study of Mus musculus with 336 samples.

Results

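Liver slices from Bmal1-/- mice, cultured after a dexamethasone pulse, were compared between the third day of harvest (day 3, CT48 to CT69) and the first (day 1, CT00 to CT21). CT is the circadian time on the labels, in hours from the start of harvest. The 16 libraries, 8 per day, were chosen by genotype, tissue and time label alone, out of 48 slice libraries and 336 samples in the series, and each library of day 3 was set against the library of the same circadian phase on day 1, 48 h earlier. The comparison asks what changes slowly in slice culture when the circadian activator is missing, once a daily wave is balanced out by the pairing.

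Day 3 and day 1 share genotype, pulse and culture as labelled. All slices came from adult Bmal1-/- mice on a C57BL/6 background, about 500 micron thick, on membrane discs, and received 100 nM dexamethasone for 15 min, a glucocorticoid pulse used to synchronise clocks. Harvest began 48 h after this pulse and went on every 3 h for 3 days, so that day 1 starts 48 h and day 3 starts 96 h after it. Slices of wild-type (WT) adult C57BL/6 mice, with the same pulse and times, served as the background. The labels give no number of animals, and state 3 slices per time point and genotype, while the table holds 1 value per gene and time point from 3 sequencing runs. The time points of a day therefore stand in for replicates. With phase as a block, the p-values measure how far the change between days varies from phase to phase. Per the run names the 2 genotypes were sequenced on different lanes, so genotype and lane cannot be told apart.

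BMAL1, the product of Arntl, pairs with CLOCK and binds E-box DNA to drive the daily transcription of the Per, Cry and Rev-erb genes, which feed back on it. Liver in culture is known to lose part of its hepatocyte programme, whose main products are plasma proteins, apolipoproteins and detoxifying enzymes. Slicing is an injury, to which hepatocytes and resident macrophages answer with cytokines such as IL-6, chemokines and the acute phase proteins, driven by NF-kB and STAT3.

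Arntl itself, read over the whole gene, had 4.28, 4.85 and 6.72 FPKM in Bmal1-/- slices on day 3 (lowest, median and highest library) and 2.9, 4.56 and 5.67 on day 1. In WT slices it had 2.93, 3.88 and 6.67 FPKM on day 3 and 3.6, 3.92 and 4.31 on day 1, so the gene named for the knockout was read at overlapping levels in both genotypes. FPKM are fragments scaled to transcript length and to the mapped fragments of the library, rescaled here so that the typical gene has the same level in every library. A gene-level value does not show whether a deletion is present, so it does not check the genotype label, and its log2 change of 0.16 ± 0.08 (SE; adjusted p = 0.326) did not pass the test. Neither the 6 tested genes of clock activators and ROR receptors nor the 12 of repressors and E-box outputs held a call, and their median log2 changes were 0.07 and -0.03. Ciart, a repressor of CLOCK and BMAL1, came nearest at -0.61 ± 0.15 (adjusted p = 0.0738), and Nr1d1, Per2 and Cry1 had changes of -0.17, -0.18 and 0.17.

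Depth is given only in relative terms, because FPKM hold no counts. Steps in the low values put the depth of the day 3 libraries at 0.871 to 2.79 times that of CT00 (median 1.69) and of the day 1 libraries at 0.607 to 2.08 times (median 1.04), so day 3 was on the whole deeper. CT09, CT63 and CT66 stood apart from the other libraries, with median correlations of 0.845, 0.871 and 0.873 over log2 values, against 0.894 to 0.922 for the rest. CT09 had the highest summed FPKM of the 16, 2121562, and Alb, the albumin gene, reached 41796 FPKM there. Among 9026 genes whose median over the 16 libraries reached 5 FPKM, 159 were listed at 0 in some of these 16. The mitochondrial genes mt-Co1 and mt-Nd1 are among the 159, which are not used as evidence of change. Fewer cells of a type and less RNA per cell cannot be told apart in bulk tissue.

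Of 14489 genes that averaged 1 FPKM or more, 92 were higher on day 3 (0.635% of genes) and 160 lower (1.1%) at an adjusted p below 0.05 in limma. The median change of those higher was 0.64 and of those lower -0.66 on the log2 scale, against 0.0001 over all genes, and 48 changed at least 2-fold, 17 up and 31 down. In 83 of the 92 and 147 of the 160 the change had the same sign in all 8 phases. The test used these same 8 pairs, so a shared sign follows in part from the choice of genes. The levels of the 2 days did not overlap at all for 20 of the 92 and 43 of the 160, against 82 genes, or 0.566%, of all tested. The count depends on single time points. Leaving out 1 phase at a time gave 0 to 794 calls, 0 without 15 h (CT63 and CT15) and 794 without 9 h (CT57 and CT09), with 11 without 0 h, 8 without 3 h, 165 without 6 h, 86 without 12 h, 45 without 18 h and 61 without 21 h. All of the called genes that could be tested kept their direction in each of these fits. Each fit averages 7 of the same 8 pairs, so the direction was fixed beforehand for genes with 1 sign in all 8 phases. It is no separate support for the calls. The highest adjusted p of the called genes in these fits was 0.149, without 15 h. Uts2b, Vwf, Nupr1 and Ccl7, named below, were called in 7 of the 8 such fits, all but that without 15 h. They were the most stable of the 45 called genes picked by the naming rule. Hbb-bs, Cd36 and Cxcl1 were called in 2 of the 8, and Saa3, Serping1, Cxcl5, Cidea and Pnpla2 in 1. Over the 45 genes, 133 of 360 such refits kept the call.

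**Figure D1:**
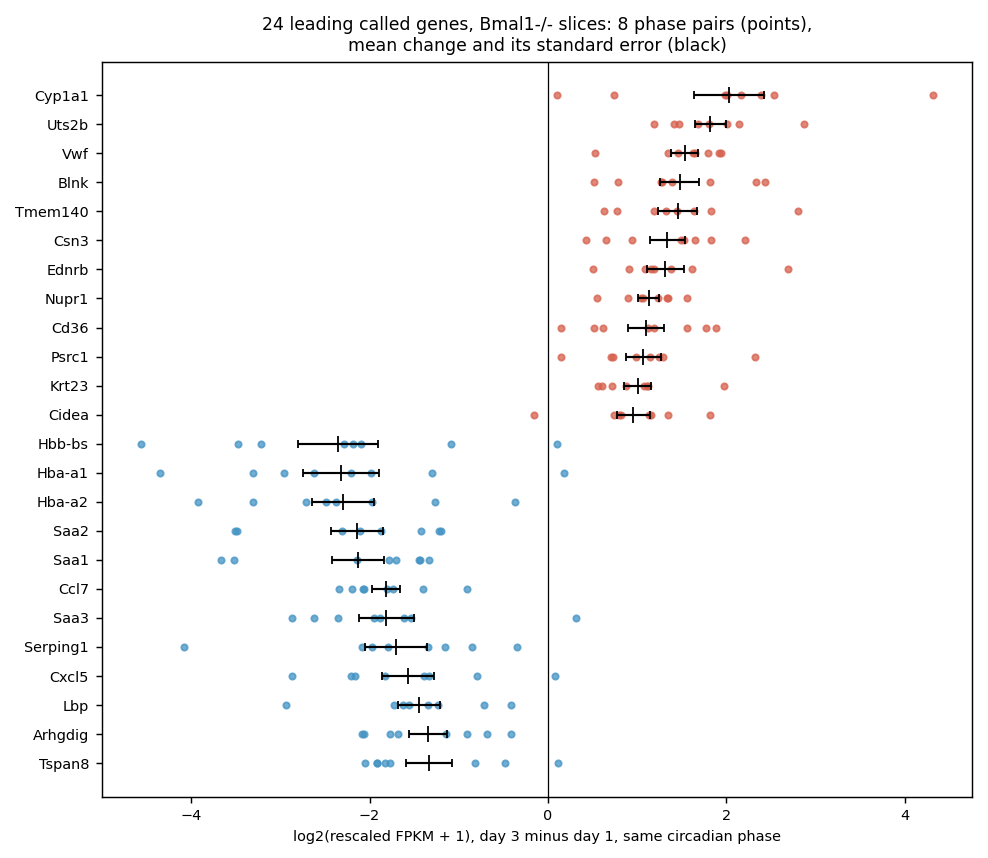
Log2 change of the 24 leading genes, day 3 minus day 1, in Bmal1-/- slices; each point is 1 of 8 phase pairs, the upright bar is the mean and the black whisker its standard error, red for genes higher and blue for genes lower on day 3. All 8 pairs lie above 0 for Cyp1a1, Uts2b, Vwf and Nupr1, while Hbb-bs, Hba-a1, Saa3, Cxcl5 and Tspan8 each have 1 pair above 0.

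Some cytokines and chemokines fell. Il6 encodes interleukin 6, the cytokine that switches on acute phase genes in hepatocytes. It had 0.417, 0.683 and 0.809 FPKM on day 3 (lowest, median, highest) and 1.68, 3.98 and 7.56 on day 1. Every library of day 3 was below every library of day 1, and the log2 change was -1.51 ± 0.18 (SE, 8 pairs; adjusted p = 0.0124). Ccl7, a chemokine that draws monocytes, had 1.53, 3.16 and 4.21 FPKM on day 3 and 7.81, 11.9 and 21.5 on day 1, again with no overlap, a change of -1.81 ± 0.16 (adjusted p = 0.0075). Csf3, the growth factor of neutrophils, had 0.364 to 1.5 FPKM on day 3 and 1.52 to 7.14 on day 1 (change -1.08 ± 0.21, adjusted p = 0.0413), where CT09 held the 7.14.

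Chemokines that draw neutrophils fell as well. Cxcl1 had 17.1, 36.7 and 53.2 FPKM on day 3 and 41.5, 74.1 and 103 on day 1, and the days overlapped in part. Its change was -1.09 ± 0.19 (adjusted p = 0.0305), lower in 7 of 8 phases. Cxcl5 had 0.721, 1.38 and 2.02 FPKM on day 3 and 1.36, 5.57 and 12.8 on day 1 (change -1.56 ± 0.29, adjusted p = 0.0391). Ccl3, made by macrophages, went the other way, with 3.93, 8.52 and 13.8 FPKM on day 3 and 2.67, 5.78 and 13 on day 1, higher in all 8 phases by a mean of 0.57 ± 0.11 (adjusted p = 0.0438). In all, 3 of 15 chemokines fell and 1 rose, with a list median of -0.60, and 2 of 17 cytokines and NF-kB targets fell, with a median of -0.32. Nfkb2, a subunit of NF-kB, did not pass (change -0.53 ± 0.12, adjusted p = 0.0583).

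The promoters of Cxcl1 and Il6 are shown because both genes fell and both hold matches to the letters of an NF-kB site. The windows run from 250 bases before to 50 after the start of the gene, from RefSeq on GRCm38.p6, both on the plus strand, at chr5:90890995-90891294 for Cxcl1 and chr5:30012864-30013163 for Il6. Capitals mark matches to GGGNNNTTCC on either strand, 3 in Cxcl1, of which the second and the third overlap, and 1 in Il6.
Cxcl1: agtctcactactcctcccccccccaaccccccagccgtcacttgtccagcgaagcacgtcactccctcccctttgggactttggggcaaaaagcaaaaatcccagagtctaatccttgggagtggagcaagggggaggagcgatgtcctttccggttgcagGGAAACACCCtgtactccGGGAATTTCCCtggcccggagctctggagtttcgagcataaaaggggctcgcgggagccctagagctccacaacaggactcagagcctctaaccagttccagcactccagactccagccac
Il6: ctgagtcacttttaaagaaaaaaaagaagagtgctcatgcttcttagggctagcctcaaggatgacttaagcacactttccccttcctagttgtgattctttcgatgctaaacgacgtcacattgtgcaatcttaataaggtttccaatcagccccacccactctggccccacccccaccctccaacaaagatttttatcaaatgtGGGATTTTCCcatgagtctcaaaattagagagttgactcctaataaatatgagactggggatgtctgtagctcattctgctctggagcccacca
The acute phase list, the chemokine list and the list of cytokines and NF-kB targets held 48 tested genes. Of these 35 had a window, of which 11 (31.4%) held the NF-kB letters, 8 (22.9%) the AP-1 letters and 2 (5.71%) the E-box. Some of these genes were listed for being NF-kB targets, so a high share of its letters is partly built in. The share also covers members that were not called. The NF-kB share was 11.8% (14 of 119) for genes lower on day 3, 14.5% (10 of 69) for genes higher, 6.21% (592 of 9533) for all tested genes and 5.52% of all 27025 windows. The E-box CACGTG was in 16.8% of the windows of genes lower on day 3, 7.25% of genes higher, 10.4% of tested genes and 7.24% of all windows, and the AP-1 letters TGACTCA or TGAGTCA were in 3.36%, 4.35%, 3.74% and 5.17%. A match is a description of letters, and the NF-kB letters were chosen after the values of Cxcl1 and Il6 had been seen.

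The acute phase proteins, which hepatocytes secrete under the control of interleukin 6, had a negative change in all 16 tested members. The median was -1.42, and 6 fell: Saa1, Saa2, Saa3, Lbp, Orm2 and Orm3. None was called in the fits without 0 h, without 3 h or without 15 h. Without 9 h, 15 h and 18 h together the median was -0.966, with 0 calls, in a fit that called 2 genes in all. The secreted plasma proteins, given below, had a median of -1.40. A link to the fall of Il6 was not tested. Saa1, a serum amyloid A gene, had 10.3, 31.6 and 62.8 FPKM on day 3 and 52.7, 124 and 354 on day 1, a change of -2.13 ± 0.29 (adjusted p = 0.0199). Its neighbour Saa2, close enough in sequence that reads may be split between them, had 5.64, 16.3 and 26.6 FPKM on day 3 and 34.8, 64.8 and 194 on day 1 (change -2.14 ± 0.29, adjusted p = 0.0199). The days overlapped in Saa1 and not in Saa2, and both were lower in all 8 phases.

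Saa3, the serum amyloid of macrophages and other cells outside the hepatocyte as well, had 31.4, 54.4 and 139 FPKM on day 3 and 89.1, 235 and 865 on day 1 (change -1.81 ± 0.31, adjusted p = 0.0287). It was lower in 7 of 8 phases. Lbp, the plasma protein that presents bacterial lipopolysaccharide to CD14, had 4.48, 11.6 and 19.6 FPKM on day 3 and 15.2, 25.6 and 109 on day 1 (change -1.45 ± 0.24, adjusted p = 0.0287). Serping1, the inhibitor of complement C1, a leading gene outside this list, had 26.7, 90.6 and 202 FPKM on day 3 and 116, 217 and 1268 on day 1 (change -1.70 ± 0.35, adjusted p = 0.0488). Its range over the fits that left out a phase was -1.90 to -1.36. Orm2, an orosomucoid, had 1.02, 5.2 and 13.4 FPKM on day 3 and 7.22, 14.3 and 36.9 on day 1 (change -1.33 ± 0.22, adjusted p = 0.0287), with the same reservation for its near copies Orm1 and Orm3.

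**Figure D2:**
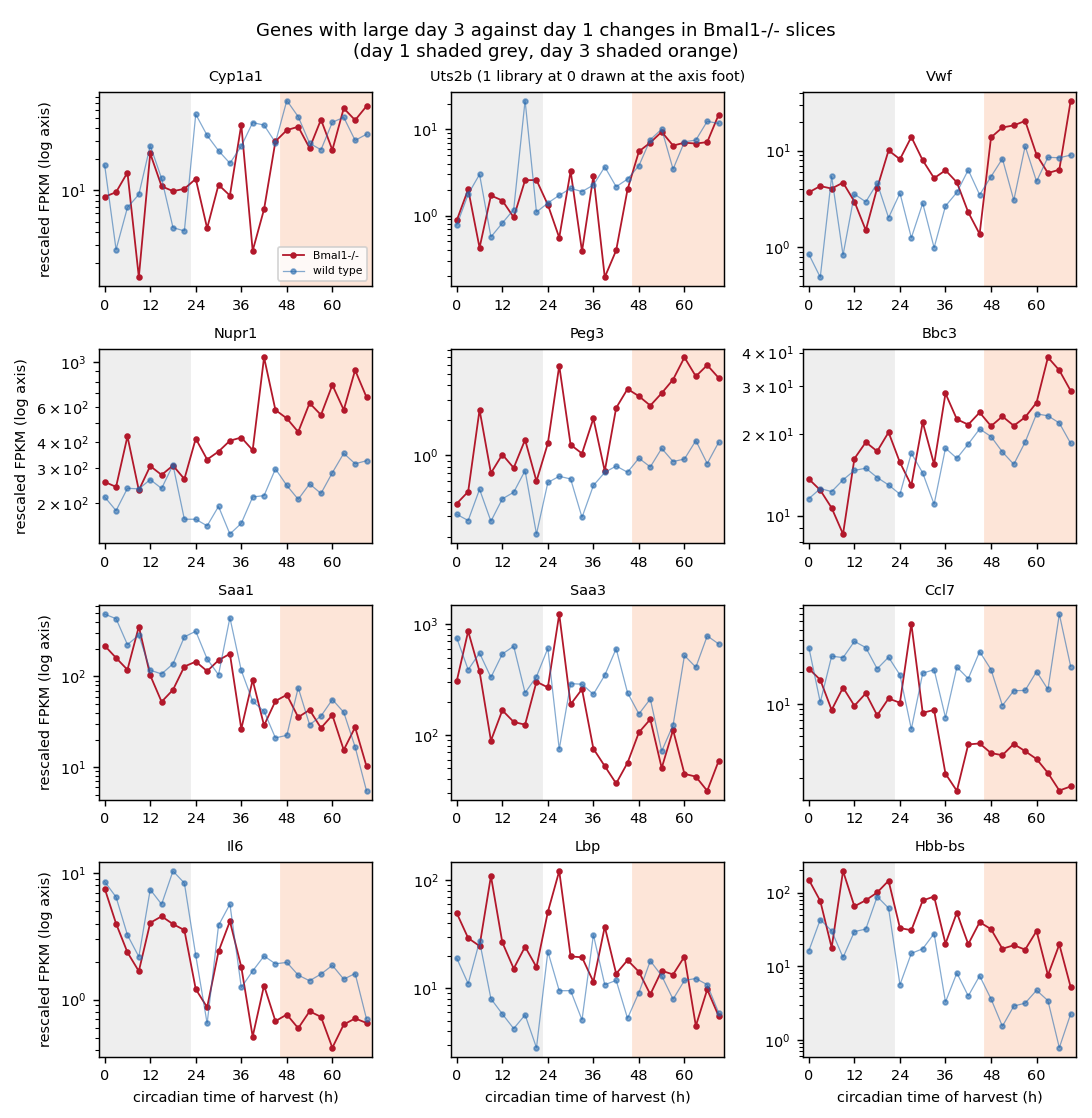
Rescaled FPKM (log axis) of 12 genes at each circadian time of harvest in Bmal1-/- (red) and WT (blue) slices, day 1 shaded grey and day 3 orange, 1 library per point. In Bmal1-/- slices Il6, Ccl7 and Saa1 are low throughout day 3, Uts2b lies above its day 1 levels throughout it, Vwf overlaps with its day 1 levels, and Peg3, Nupr1 and Bbc3 are already between the 2 levels on day 2.

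Plasma proteins and several metabolic lists of the hepatocyte had mostly negative changes that did not pass the test gene by gene. All 20 secreted plasma proteins had a negative change with a median of -1.40 and all 20 had an unadjusted p below 0.05, yet none was called. The changes were also negative in 23 of 23 complement and coagulation proteins (median -1.66), 14 of 15 apolipoproteins and lipid exporters (-1.25), 11 of 13 bile acid genes (-1.21) and 16 of 19 cytochrome P450 genes (-1.12), each with 0 calls. Serpinc1, the gene of antithrombin, had 91.3, 476 and 1191 FPKM on day 3 and 622, 1380 and 10434 on day 1 (change -2.04 ± 0.44, adjusted p = 0.0557). F2, the gene of prothrombin, had 31.2, 139 and 309 FPKM on day 3 and 184, 339 and 2209 on day 1 (change -1.78 ± 0.40, adjusted p = 0.0588). Alb had 568 to 5377 FPKM on day 3 and 2705 to 41796 on day 1 (change -1.75 ± 0.44, adjusted p = 0.0735).

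The libraries that stood apart moved with these lists. The summed level of the secreted proteins was 5559, 16453 and 33904 FPKM on day 3 (lowest, median, highest) and 17616, 31439 and 192577 on day 1, the highest being CT09. Without the 9 h pair the median change of the secreted list was -1.05 with 6 calls, all lower, and that of the complement list -1.3 with 15 calls, all lower. With quality weights, which gave 1667 calls over all genes, 16 of 20 secreted and 19 of 23 complement genes were called lower. With a linear slope over 24 libraries, which gave 802 calls over all genes, 9 of 20 and 17 of 22 were. Without 9 h, 15 h and 18 h together, which removes CT09, CT63 and CT66, the medians were -0.807 and -1.14 with no calls. That last fit called only 2 of 14407 genes, so a lack of calls in a list says little there. The part of single libraries in the remaining change was not tested.

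Other lists had medians nearer to 0. The 15 hepatocyte transcription factors had a median of 0.01, with 1 member up and 1 down. Prox1, a homeobox factor of hepatocytes and of lymphatic endothelium, had 2.91, 3.37 and 4.94 FPKM on day 3 and 1.75, 2.35 and 2.64 on day 1 without overlap (change 0.47 ± 0.09, adjusted p = 0.0443). Onecut2, a cut-homeobox factor, had 4.38, 7.19 and 12.8 FPKM on day 3 and 10.2, 13.2 and 20.9 on day 1 (change -0.70 ± 0.14, adjusted p = 0.0448). Urea cycle genes (median -0.30, 0 of 10 called), fatty acid oxidation (-0.10), nuclear genes of oxidative phosphorylation (-0.11, 0 of 19), cytosolic ribosomal proteins (0.06, 0 of 16) and proteasome subunits (-0.05, 0 of 14) are further examples. In fatty acid oxidation 1 of 18 fell, Cyp4a14, a fatty acid hydroxylase under PPARalpha (0.174, 0.854 and 2.94 FPKM on day 3 and 1.07, 2.22 and 4.78 on day 1; change -0.70 ± 0.14, adjusted p = 0.0448).

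**Figure D3:**
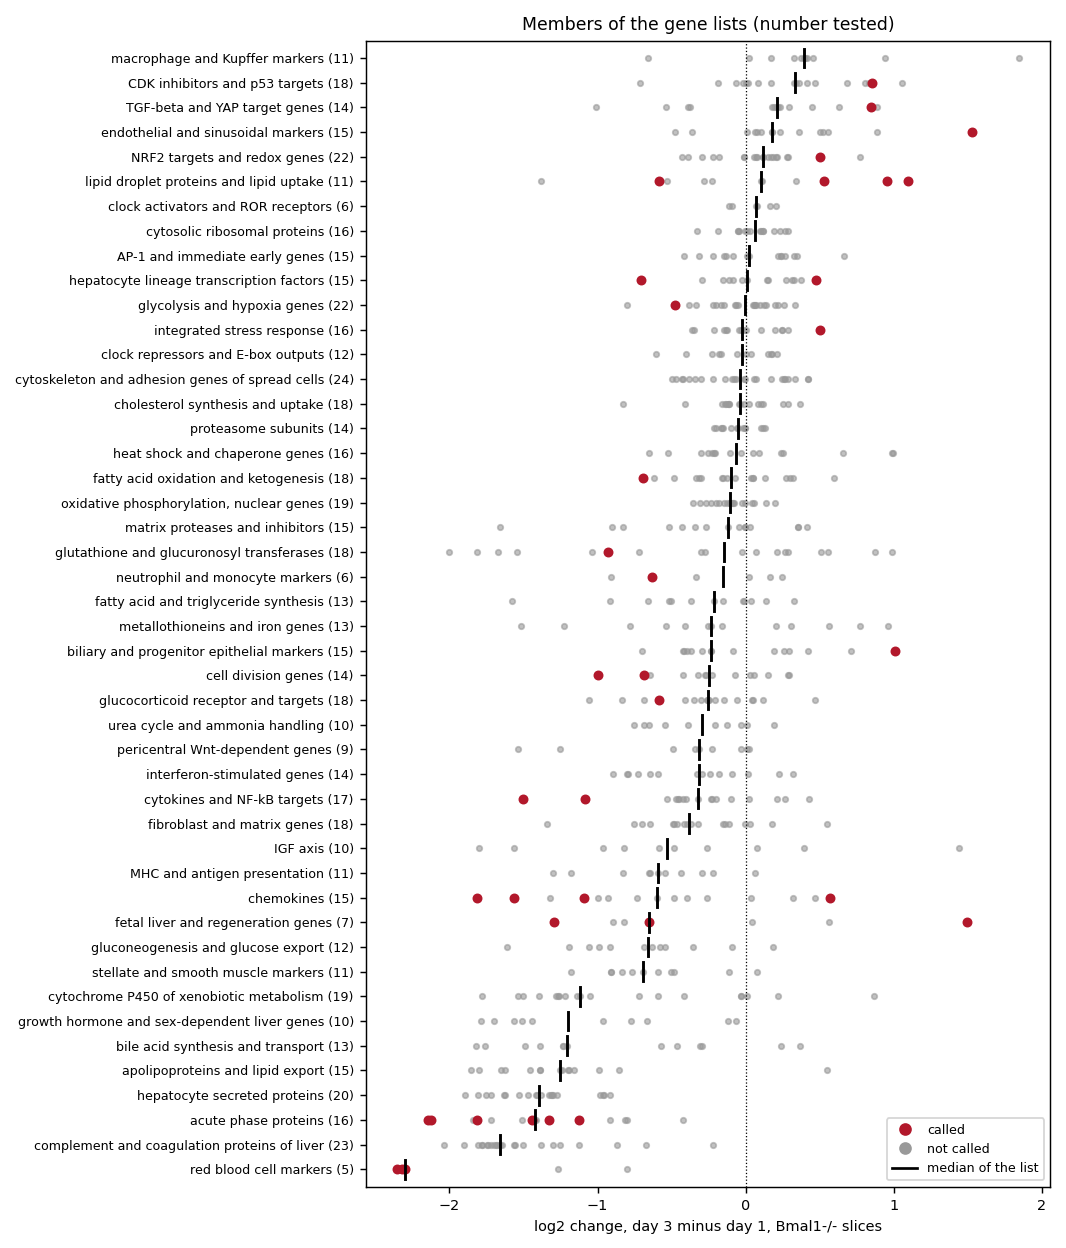
Log2 change, day 3 minus day 1, in Bmal1-/- slices for each tested member of the gene lists, 1 row per list with its number of tested genes, ordered by the list median (black bar); red points passed the test and grey points did not. The red blood cell list has the lowest median, -2.30, and the macrophage list the highest, 0.39; the mitochondrially encoded genes, the mesothelial list (1 gene tested) and the lymphocyte list (0 tested) are not drawn.

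The red blood cell genes had the largest falls among the called genes. Hbb-bs, a beta globin, had 5.19, 18.3 and 31.9 FPKM on day 3 and 17.9, 89.7 and 197 on day 1 (change -2.35 ± 0.45, adjusted p = 0.0413). Hba-a1 and Hba-a2, alpha globins of near identical sequence that may share reads, changed by -2.32 ± 0.42 and -2.30 ± 0.35 (adjusted p = 0.0358 and 0.0212). Hba-a1 had 2.1, 6.89 and 12.7 FPKM on day 3 and 6.78, 39.2 and 69.7 on day 1, and the lowest library of day 1 was CT06 for it and for Hbb-bs. In all 3 the days overlapped through that library, and 3 of the 5 tested members fell, with the other 2 negative. The sum over the list was 9.71, 32.6 and 65.6 FPKM on day 3 and 37.8, 160 and 342 on day 1.

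Markers of other cells of the liver gave few calls. Of 15 endothelial and sinusoidal markers 13 had a positive change, with a median of 0.18, and 1 rose. This was Vwf, the gene of von Willebrand factor, which endothelial cells store and secrete for clotting. It had 5.86, 15.6 and 33.1 FPKM on day 3 and 1.5, 4.08 and 10.1 on day 1, higher in all 8 phases, with a change of 1.53 ± 0.15 (adjusted p = 0.0075). Cdh5, the cadherin of endothelial junctions, had 29.8, 103 and 230 FPKM on day 3 and 16.8, 50 and 101 on day 1, and its change of 0.89 ± 0.26 did not pass (adjusted p = 0.105). Ednrb, the endothelin receptor B of sinusoidal and stellate cells, stood among the leading genes with a mean of 126 ± 65.6 FPKM on day 3 and 49.2 ± 27.8 on day 1 (SD, n = 8 each; change 1.31 ± 0.21, adjusted p = 0.025). The summed endothelial list overlapped widely between the days, at 498, 1327 and 1863 FPKM on day 3 and 448, 1128 and 2576 on day 1.

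The 11 macrophage markers had a median of 0.39 and 0 calls. Marco, a scavenger receptor of Kupffer cells, was the highest of them, with 9.47, 48.3 and 109 FPKM on day 3 and 3.76, 5.56 and 46.1 on day 1, higher in all 8 phases (change 1.85 ± 0.45, adjusted p = 0.0681). Clec4f, the lectin that marks resident Kupffer cells, was the only tested member below 0 (-0.66 ± 0.28, adjusted p = 0.228). The summed list had 164, 304 and 641 FPKM on day 3 and 153, 213 and 398 on day 1. Fibroblast and matrix genes (0 of 18 called, median -0.39) and stellate and smooth muscle markers (0 of 11, -0.70) were high in CT06 of day 1, where their sums reached 1844 and 1132 FPKM. Of these, 4 fibroblast and 2 stellate genes reached the 1 FPKM needed only with the 6 h pair. Over the 14 and 9 members tested either way, the medians were 0.01 and -0.19 without the 6 h pair and -0.39 and -0.77 with it. Of the neutrophil and monocyte markers 1 of 6 fell, S100a8, a calcium-binding protein of neutrophils (change -0.63 ± 0.11, adjusted p = 0.0329), and none of the 14 lymphocyte and NK markers reached the 1 FPKM needed to be tested.

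**Figure D4:**
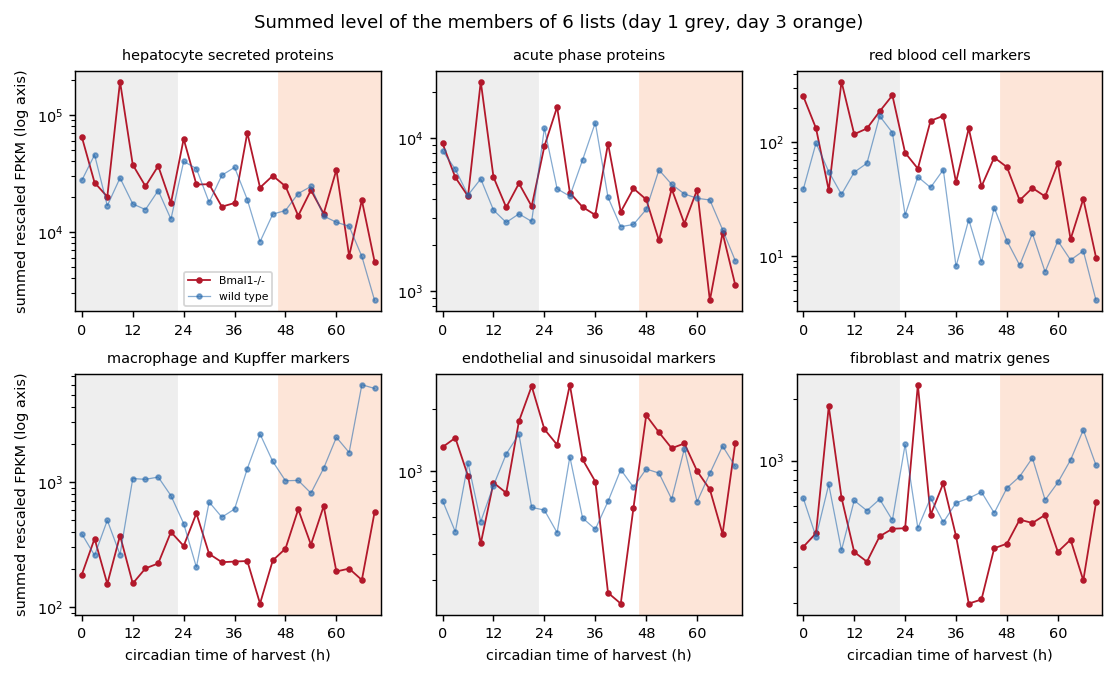
Summed rescaled FPKM (log axis) of the members of 6 lists at each circadian time of harvest, Bmal1-/- slices in red and WT slices in blue, day 1 shaded grey and day 3 orange. In Bmal1-/- slices the sum of red blood cell markers is at or below 65.6 FPKM on day 3, and the secreted and acute phase sums peak in CT09 of day 1; the WT macrophage sum is highest at the end of day 3.

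Among the genes that rose, Cyp1a1 had the largest change. It encodes a cytochrome P450 induced by the aryl hydrocarbon receptor, and lies at chr9:57687928-57703824 (GRCm38, gene bounds from GENCODE M21). It had 24.5, 44.2 and 64.6 FPKM on day 3 and 1.46, 10.1 and 22.7 on day 1 without overlap, a change of 2.03 ± 0.39 (adjusted p = 0.0413). The lowest library of day 1 was CT09. Uts2b, the gene of a urotensin-related peptide, at chr16:27353322-27370239, had 5.55, 7.02 and 14.8 FPKM on day 3 and 0.422, 1.6 and 2.58 on day 1, also without overlap (change 1.82 ± 0.17, adjusted p = 0.0075).

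Genes known from stress and cell death rose in part. Nupr1, a chromatin protein induced by many stresses, at chr7:126623249-126630861, had 451, 603 and 912 FPKM on day 3 and 232, 270 and 429 on day 1 without overlap (change 1.13 ± 0.12, adjusted p = 0.00964). Bbc3, the p53 target PUMA that promotes apoptosis, had 21.4, 24.7 and 38.4 FPKM on day 3 and 8.55, 14.9 and 20.3 on day 1, again without overlap (change 0.86 ± 0.10, adjusted p = 0.0108). It was the 1 of 18 CDK inhibitors and p53 targets to rise, in a list whose median was 0.33 with 14 members above 0. Gadd45b (1.06 ± 0.22), Cdkn2b (0.81 ± 0.17) and Cdkn1a (0.47 ± 0.11) lay on the far side of the threshold, with adjusted p of 0.05, 0.0501 and 0.063.

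Slc7a11, the cystine importer that counts in both the NRF2 list and the integrated stress response list, had 23.6, 26.8 and 47.2 FPKM on day 3 and 11.9, 20.3 and 32.4 on day 1 (change 0.50 ± 0.10, adjusted p = 0.0413). It was the 1 call of 22 NRF2 targets (median 0.12) and of 16 stress response genes (-0.02). Neither the 16 heat shock and chaperone genes (median -0.07) nor the 15 AP-1 and immediate early genes (0.02) held a call. Ankrd1, a target of YAP, had 149, 191 and 238 FPKM on day 3 and 60.8, 112 and 134 on day 1 without overlap (change 0.85 ± 0.17, adjusted p = 0.042), the 1 call among 14 TGF-beta and YAP targets (median 0.21). Krt23, a keratin of the biliary and progenitor epithelium list, had 11.5, 13.5 and 17.5 FPKM on day 3 and 3.33, 6.52 and 10.2 on day 1 without overlap (change 1.01 ± 0.15, adjusted p = 0.0212), while Krt19 of the same list was at -0.37 ± 0.12 (adjusted p = 0.146) and the list median at -0.23.

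In lipid handling 3 of 11 genes rose and 1 fell, against 0.635% and 1.1% of all genes. The number called higher was 0 in the fits without 0 h, 3 h, 6 h, 15 h, 18 h or 21 h. It was 1 without 12 h and 3 without 9 h. Cd36, a fatty acid and lipoprotein receptor, had 14.8, 28.3 and 51 FPKM on day 3 and 8.34, 13 and 14.2 on day 1 without overlap (change 1.10 ± 0.20, adjusted p = 0.0363). Pnpla2, the triglyceride lipase ATGL, had 93.8, 124 and 175 FPKM on day 3 and 66.6, 87.3 and 109 on day 1 (change 0.53 ± 0.09, adjusted p = 0.0287), and Cidea, a lipid droplet protein, 4.84, 7.8 and 11.8 FPKM on day 3 and 1.83, 3.44 and 8.68 on day 1 (change 0.96 ± 0.19, adjusted p = 0.0413). Angptl4, an inhibitor of lipoprotein lipase and a glucocorticoid target, fell, with 46.6, 65.5 and 82.4 FPKM on day 3 and 80.6, 98.2 and 132 on day 1, lower in all 8 phases (change -0.59 ± 0.08, adjusted p = 0.0199). It was the 1 call of 18 glucocorticoid receptor targets, whose median was -0.25.

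Growth and fetal genes were split. Peg3, an imprinted zinc finger gene, had 2.67, 4.54 and 6.91 FPKM on day 3 and 0.387, 0.744 and 2.46 on day 1 without overlap (change 1.5 ± 0.17, adjusted p = 0.0108). Tff3, a trefoil factor of the same fetal and regeneration list, had 0.1, 0.503 and 1.29 FPKM on day 3 and 1.87, 2.7 and 4.78 on day 1, also without overlap (change -1.29 ± 0.19, adjusted p = 0.0212). Cd24a, a surface protein of progenitor cells, fell by 0.65 ± 0.13 (adjusted p = 0.0453), so that 1 of 7 members rose and 2 fell.

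Of 14 cell division genes 2 fell. Ccnd1, the gene of cyclin D1, had 8.07, 9.42 and 14.5 FPKM on day 3 and 12.2, 23.1 and 26.4 on day 1 (change -1.0 ± 0.16, adjusted p = 0.0265). Rrm2, a subunit of ribonucleotide reductase, had 0.82, 1.18 and 1.95 FPKM on day 3 and 1.81, 2.68 and 3.22 on day 1 (change -0.69 ± 0.12, adjusted p = 0.0287). Vegfa, the endothelial growth factor, was the 1 of 22 glycolysis and hypoxia genes to fall, with a mean of 112 ± 19.1 FPKM on day 3 and 156 ± 18.3 on day 1 (SD, n = 8 each; change -0.48 ± 0.09, adjusted p = 0.0413). Gsta4, a glutathione transferase for lipid aldehydes, was the 1 of 18 in its list, with 47, 75 and 92.9 FPKM on day 3 and 84.4, 144 and 231 on day 1 (change -0.93 ± 0.16, adjusted p = 0.0287).

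Other leading genes belong to none of the lists. Among those that rose, Blnk, an adaptor of B cells and macrophages, changed by 1.48 ± 0.22, Tmem140 by 1.45 ± 0.22, Csn3, the kappa casein gene, by 1.34 ± 0.20 and Psrc1, a microtubule-associated protein, by 1.07 ± 0.20. Their adjusted p were 0.0212, 0.0212, 0.0212 and 0.0391. Among those that fell, Tspan8, an epithelial tetraspanin, had 5.74, 12.8 and 22.7 FPKM on day 3 and 11.8, 33.1 and 65 on day 1 (change -1.33 ± 0.26, adjusted p = 0.0413).

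The steps from day to day gave few calls. Day 2 against day 1, in a fit of all 24 Bmal1-/- libraries, gave 0 calls of 14618 genes (0%) in limma at an adjusted p below 0.05, with 1082 genes at an unadjusted p below 0.05 and a lowest adjusted p of 0.0547. Day 3 against day 2 gave 3 calls (0.0205%), all higher on day 3, with 1250 genes at an unadjusted p below 0.05. These were Uts2b at 2.07, Bex2 at 1.17 and Ptprn at 0.88 on the log2 scale. Bex2 and Ptprn are named for being 2 of only 3 calls and were chosen after their values were seen. The 2 steps share the libraries of day 2, and a single gene can be followed through both. Il6 changed by -0.96 from day 1 to day 2 and by -0.55 from day 2 to day 3, Ccl7 by -0.77 and -1.04, and Peg3 by 0.66 and 0.84, so that both steps carried some of the change. Uts2b, at -0.25 and 2.07, Cyp1a1, at 0.16 and 1.87, and Tff3, at 0.11 and -1.40, changed mainly in the second step, while Pnpla2, at 0.74 and -0.21, changed in the first. A split of the course into an early part, CT00 to CT33, and a late part, CT36 to CT69, was chosen after seeing the data, and Ccl7 and Saa3 are given as examples picked from their values. Each step below is a mean over 4 pairs of time points 24 h apart and has no test. Ccl7 changed by -0.01 within the early part (CT24 to CT33 against CT00 to CT09), by -1.54 and -1.76 in the 2 steps that cross between the parts (CT36 to CT45 against CT12 to CT21, and CT48 to CT57 against CT24 to CT33), and by -0.33 within the late part (CT60 to CT69 against CT36 to CT45). Saa3 changed by 0.22, -1.65, -1.89 and -0.30 in the same steps. Lists did not all have this pattern. The median over the acute phase list, which holds Saa3, was -0.52, 0.04, -0.93 and -1.25 in the same steps. That over the secreted proteins was -0.83, 0.11, -0.79 and -1.39, where the step within the late part was the most negative of the 4. CT39 enters the second step and is in the baseline of the fourth. Its summed FPKM was 1989877, against 852989 to 1300810 in the rest of day 2, and its relative depth was 0.454. The part of this library in the list medians was not tested.

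More genes were called in WT slices over the same times. Of 14499 genes, 889 were higher (6.13%) and 1091 lower (7.52%) on day 3 in WT, with the same test. The WT libraries CT66 and CT69 stood apart, with median correlations of 0.873 and 0.866 against 0.909 to 0.938 for the other 14, and without the 18 h and 21 h pairs the WT calls fell to 439. No fit of Bmal1-/- slices left out 18 h and 21 h together. The 252 calls in Bmal1-/- slices rose to 794 without the 9 h pair, where WT had 894 calls. With the same single phase left out of both genotypes, WT kept the higher count in each fit. The counts ran from 894 to 1874 in WT and from 0 to 794 in Bmal1-/- slices, so the size of the gap depends on the libraries kept. Of the 92 genes that rose in Bmal1-/- slices, 79 had the same sign in WT, where 47.5% of all genes were positive, and 45 were called in WT, which is 48.9% of the Bmal1-/- list and 5.06% of the WT list. Of the 160 that fell, 150 had the same sign, against 51.9% of all genes that were negative, and 97 were called, 60.6% and 8.89% of the 2 lists. None was called in the opposite direction. The median WT change was 0.35 for those that rose and -0.47 for those that fell, against 0.64 and -0.66 in Bmal1-/- slices, where the genes had been chosen.

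**Figure D5:**
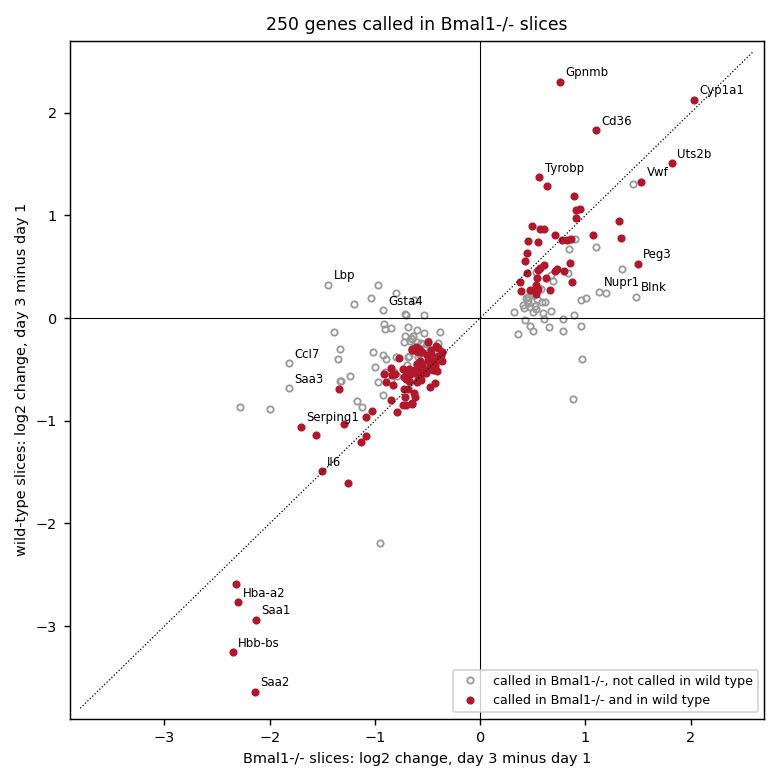
Log2 change, day 3 minus day 1, in Bmal1-/- slices (x axis) and in WT slices (y axis) for 250 called genes, filled where WT also passed the test (142) and open where it did not; the dotted line marks equal change. Il6, Cyp1a1 and Vwf lie near the line, and Lbp, Ccl7, Nupr1 and Blnk lie nearer to 0 in WT.

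The difference between the genotypes was tested directly, and no gene passed. The day by genotype term gave 0 calls of 14499 (0%) in limma, with 1637 genes at an unadjusted p below 0.05 and a lowest adjusted p of 0.0656. Il6 changed by -1.51 in Bmal1-/- and -1.49 in WT slices, and Cyp1a1 by 2.03 and 2.13. Saa1 changed by -2.13 in Bmal1-/- and -2.94 in WT slices, and Hbb-bs by -2.35 and -3.26. Peg3 changed by 1.5 in Bmal1-/- and 0.53 in WT slices (difference 0.97, adjusted p = 0.121), Nupr1 by 1.13 and 0.25 (0.87, adjusted p = 0.104), and Ccl7 by -1.81 and -0.44 (-1.37, adjusted p = 0.187). For Lbp the signs were opposite, -1.45 in Bmal1-/- and 0.33 in WT slices (difference -1.77, adjusted p = 0.137). Macrophage markers had a median of 0.39 and 0 of 11 called in Bmal1-/- slices, and 1.71 and 10 of 11 higher in WT, with 2 of 11 higher without 18 h and 21 h (median 1.42). Fibroblast and matrix genes had -0.39 and 0 of 18 called in Bmal1-/- slices, with the CT06 limit given above, and 0.89 and 10 of 18 higher in WT, with 0 of 18 called without 18 h and 21 h (median 0.83). The term for these lists' own genes passed in none, so the genotypes are not shown to differ in them.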

How the data were processed

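Poly(A)-selected RNA went into a stranded kit and single 50-base reads, per the labels. The submitters' processing notes name TopHat2 2.1.0, Cuffdiff and the build GRCm38. The deposited table holds FPKM per gene and time point, computed by the authors, with the 3 runs of a library in 1 column; the sources used here do not give the annotation release or Cuffdiff's scaling of libraries, and 0 columns were left unused. FPKM of the 48 slice libraries were rescaled by median-of-ratios (factors 0.824 to 0.904 in Bmal1-/- and 1.12 to 1.17 in WT libraries). Tests used log2(FPKM + 1) of every gene averaging 1 FPKM or more over the libraries compared, in limma 3.58.1 in R 4.3.3 (moderated test with a variance trend, circadian phase as a block of 8 levels). Fold changes of low genes are understated by the added 1. P-values were adjusted by Benjamini and Hochberg over all genes tested and genes called at an adjusted p below 0.05. Relative depth came from the steps between values under 0.3 FPKM. Count tests were not used, since FPKM are not counts. The phase block comes from the pairing of the comparison: deviations from the day means correlated at -0.11 to 0.34 between libraries of the same phase, and exceeded 0.1 in 3 of the 8 phases.

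The members and the 49 gene lists (742 genes) were chosen with earlier results of these data known. Named genes were Arntl with the clock lists, the 12 highest and 12 lowest changes among called genes with at least 5 FPKM in the higher day and the same sign in at least 7 of 8 phases, passing over gene models numbered by symbol, and up to 4 members of each list by smallest p; the rule's part for the difference between genotypes named none, as none was called. Mir221 and Mir6939 were called but listed at 0 in all 8 day 1 libraries, and are given no fold. A further leading gene that fell is not reported here. Promoters are RefSeq windows on GRCm38.p6 and other gene bounds are GENCODE M21. Alternatives were other rescaling, a pseudocount of 0.1, no filter, no block, no variance trend, all 24 libraries, a linear slope, and leaving out each phase. Quality weights, leaving out 9 h, 15 h and 18 h together, leaving out genes listed at 0, and the steps between early and late parts of the course were added after seeing the data, as were list medians over the same genes without 6 h and the WT lists without 18 h and 21 h.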

Additional observations from a re-analysis of the deposited data

Results flagged for a closer look

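Single libraries stood apart within a day of the Bmal1-/- slices in 12 of the 106 groups of 8 libraries examined (the called genes picked by the naming rule and 8 list sums, on each of the 2 days). The measure is the gap between the extreme library and its neighbour divided by the range on the log2 scale, set against Dixon's critical value at 95%; chance flags about 1 in 20 groups.

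On day 3, Gsta4 was lowest in CT63, at 47 FPKM with 68.7 in the next library (ratio 0.555), and Vegfa was highest in CT66, at 155 with 121 in the next (0.533). On day 1, CT09 was the lowest library for Cyp1a1, at 1.46 with 8.69 in the next (0.605), for Ccnd1, at 12.2 with 20.5 in the next (0.669), and for Psrc1, at 3.57 with 9.04 in the next (0.578), and the highest for Csf3, at 7.14 with 3.02 in the next (0.601). CT06 was the lowest library of day 1 for Hba-a1, at 6.78 with 28.8 in the next (0.609), and for Hbb-bs, at 17.9 with 65.1 in the next (0.534), and the highest for Nupr1, at 429 with 308 in the next (0.541). In the same library the sum of fibroblast and matrix genes was 1844 with 659 in the next (0.588), and that of stellate and smooth muscle markers 1132 with 90.4 in the next (0.757). Prox1 was lowest on day 1 in CT21, at 1.75 with 2.2 in the next (0.539).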

How the results depend on the processing

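The 252 calls of day 3 against day 1 in Bmal1-/- slices became 42 with no filter on low values, 802 with a linear slope over the 24 libraries, 1667 with quality weights and 2 without the 9 h, 15 h and 18 h pairs; with no replicate block for phase they were 257, of which 175 were among the 252. Leaving out 1 phase gave 0 to 794. Other rescalings, pseudocount, variance trend, all 24 libraries and the removal of genes listed at 0 gave 213 to 300. Every called gene that could be tested kept its sign in all of these fits, which reuse the same libraries, so this is no separate support. Day 2 against day 1 went from 0 calls to 1 with no rescaling, and day 3 against day 2 from 3 to 1 with a pseudocount of 0.1. The 1980 calls in WT became 1037 with no filter and 439 without 18 h and 21 h, and 894 to 1874 without 1 phase. The difference between genotypes gave 1 call with all 48 libraries, 1 without 18 h and 21 h, and 0 to 3 without 1 phase, with 0 in the other fits, the one with no block included. The cause of these shifts was not tested. For the 45 called genes picked by the naming rule, 369 of 495 refits other than leaving out a phase kept the call, as did 133 of 360 that left one out. The 45 include the gene not reported here, and leave out Orm3 and the called genes chosen after their values were seen. Rescaling moved the median of all genes by less than 0.1 on the log2 scale.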

Other observations

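Factors that build ribosomes in the nucleolus were also among the genes that fell. They were noticed in the list of called genes, and a list of 82 ribosome biogenesis factors was then written from general knowledge with those values seen, so the counts are a description with no test. Of the 82, all tested, 25 were called lower in Bmal1-/- slices on day 3 and 0 higher, 76 had a negative change, and the median was -0.32, against 0.0001 over all genes and a background of 1.1% called lower. In WT slices 55 were called lower and 0 higher, with a median of -0.34, against a background of 7.52% called lower. Ncl, the gene of nucleolin, averaged 362 FPKM on day 3 and 600 on day 1 (log2 change -0.74, adjusted p = 0.0448). Ubtf, which opens ribosomal DNA for RNA polymerase I, averaged 21.3 FPKM on day 3 and 32.6 on day 1 (-0.58, adjusted p = 0.0199). Dkc1 and Gar1, of the complex that makes pseudouridine, averaged 21.7 and 99.6 FPKM on day 3 and 32.7 and 156 on day 1 (-0.56 and -0.64, adjusted p = 0.0287 and 0.0326). Of the structural proteins of the cytosolic ribosome 0 of 16 were called, with a median of 0.06; the difference between the lists was not tested.

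Nop2, an rRNA methyltransferase of the same list, had 22.6 to 32.7 FPKM on day 3 and 30.2 to 47.2 on day 1 (-0.43 ± 0.08, adjusted p = 0.0400). Of the 70 listed factors with a promoter window, 14 (20%) held the E-box letters CACGTG, which MYC and CLOCK with BMAL1 are known to bind, against 10.4% of tested genes. The window of Nop2, chr6:125131633-125131932 on the plus strand of GRCm38.p6, is shown as an example with the match in capitals.
Nop2: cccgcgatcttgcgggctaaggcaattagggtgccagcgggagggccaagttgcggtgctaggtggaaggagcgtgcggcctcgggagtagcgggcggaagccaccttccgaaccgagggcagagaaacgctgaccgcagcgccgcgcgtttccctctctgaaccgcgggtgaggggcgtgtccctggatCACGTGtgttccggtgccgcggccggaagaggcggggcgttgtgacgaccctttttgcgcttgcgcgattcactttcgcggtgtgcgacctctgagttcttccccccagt

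Gpnmb, Tyrobp and Clec4d were picked because they were called higher in Bmal1-/- slices on day 3, and they stand for no cell type. In the written list of macrophage markers 0 of 11 were called, with a median of 0.39 and Clec4f at -0.66 (adjusted p = 0.228). Gpnmb, a glycoprotein of lipid-laden macrophages, had 4.05, 6.89 and 14 FPKM on day 3 (lowest, median, highest) and 1.32, 3.6 and 7.18 on day 1, with a log2 change of 0.76 ± 0.16 (adjusted p = 0.0486) and of 2.30 in WT slices. Tyrobp, the adaptor DAP12, had 37.8, 59.9 and 91 FPKM on day 3 and 24.9, 44.6 and 69 on day 1 (0.56 ± 0.10, adjusted p = 0.0318, and 1.37 in WT). Clec4d, a lectin of myeloid cells, had 51.3, 103 and 136 FPKM on day 3 and 25.5, 41.4 and 92.7 on day 1 (0.94 ± 0.19, adjusted p = 0.0455, and 1.07 in WT). The summed macrophage marker list was 164 to 641 FPKM on day 3 and 153 to 398 on day 1, and its part in these changes was not tested.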
